A study of Mus musculus with 20 samples.

Results

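All 7 mouse induced pluripotent stem cell (iPSC) lines were compared with 3 embryonic stem cell (ESC) lines, to ask which genes lay to one side of the ESC lines in every iPSC line, whatever the reprogramming factors and whatever the quality grade. Membership came from the sample titles, and the 14 iPSC arrays and 6 ESC arrays make up all 20 arrays of the series. The 4 OSKM lines, made with Oct4, Sox2, Klf4 and Myc, were KH2_OSKM, Oct4-GFP OSKM#2 and Nanog-GFP OSKM#2, each graded poor, and BC_2 OSKM, graded good. The 3 SNEL lines, made with Sall4, Nanog, Esrrb and Lin28, were Nanog-GFP SNEL#3, graded good, and Nanog-GFP SNEL#2 and Oct4-GFP SNEL#1, graded high. ESC lines were at hand for 3 of the 4 named origins (Oct4-GFP ESCs, Nanog-GFP ESCs, and KH2 ESCs) and not for BC_2. All lines, ESC lines included, were kept in 2i medium without feeder cells and received no treatment. Each line is a single clone or culture with 2 arrays, nothing in the labels says that these came from separate cultures, and the labels do not say how the grades were measured.

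Reprogramming returns a differentiated cell to a state in which it renews itself and can form the tissues of an embryo. An iPSC line made from fibroblasts has to silence genes of matrix and contraction and to switch on the endogenous pluripotency network, while an ESC line comes from the embryo directly. 2i medium blocks the MEK and GSK3 kinases and holds mouse pluripotent cells in the naive state.

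The label of pluripotent cells was borne out by high levels of the markers given here in both groups, with Zfp42 lower in the Oct4-GFP iPSC lines. Nanog had levels of 6.52, 6.88 and 7.22 (lowest, median and highest of the 7 iPSC lines), against 6.98, 6.92 and 6.97 in KH2, Nanog-GFP and Oct4-GFP ESCs, where a level is the log2 signal minus the 75th percentile of the array. Esrrb, a transcription factor of the naive state, ran from 7.18 to 7.73 in iPSC lines and from 7.36 to 7.43 in ESC lines. Nanog and Esrrb are also factors of the SNEL lines. Pou5f1, the gene of Oct4, ran from 5.13 to 6.47 in iPSC lines and from 5.15 to 6.34 in ESC lines. Zfp42 ran from 3.88 to 6.48 in iPSC lines, lowest in the Oct4-GFP ones, and from 5.77 to 6.05 in ESC lines. Of the 8 reprogramming factors, 4 were higher and 4 lower in iPSC lines, with a median difference of 0.01, and for none of the 8 were the 7 iPSC lines all to one side of the ESC lines. Of the 12 blood and macrophage markers tested, 1 was higher and 1 lower in all 7 iPSC lines, 8.33% each, beside 0.662% and 3.65% of all genes. Ptprc, the CD45 antigen of blood cells, was well above background on 5 of 14 iPSC arrays and on 4 of 6 ESC arrays. Between 49.7% and 77.5% of probes per iPSC array were well above background, against 60.6% to 68.7% per ESC array.

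The slide on which an array sat moved with the comparison. Slides 1 and 2 held 13 iPSC arrays and 3 ESC arrays, and slide 3 held 1 iPSC array and 3 ESC arrays. Results are therefore given over all arrays and over slides 1 and 2 alone, which keep at least 1 array of every line. A gene is said to meet the rule where all 7 iPSC lines lie above, or all 7 below, all 3 ESC lines.

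With the line as the replicate (7 against 3), limma called 0 of 27059 genes at an adjusted p under 0.05, a share of 0%, and the lowest adjusted p was 0.201. At an unadjusted p under 0.05, 623 genes were higher and 1968 lower in iPSC lines. All 7 iPSC lines lay above all 3 ESC lines for 179 genes (0.662% of those tested) and below them for 987 (3.65%). With normexp background correction the same counts were 331 and 546. Over slides 1 and 2 alone the counts were 103 (0.381%) and 198 (0.732%), and limma called 0 genes. Some genes meet the rule under a random order of the lines. How many do so was not tested, so none of these counts is read as an excess. The rule was met both ways by 70 genes on the higher side (0.259%), which are 39.1% of the 179, and by 124 on the lower side (0.458%), which are 12.6% of the 987. The median size of the difference was 1.20 in the 70 and 0.62 in the 124, and 24 of the 70 were not well above background on any ESC array. Leaving out 1 line moved the 179 to between 207 and 812 and the 987 to between 1083 and 2268, with the most genes when Nanog-GFP ESCs were left out. With 1 line fewer the rule is easier to meet, so these counts can only rise or stay level.

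The lower set in particular followed slide 3. Relative to the mean of the iPSC arrays, the median of the 987 genes was 0.66 on the single iPSC array of slide 3, against 0.80 to 0.98 on the 3 ESC arrays there. On slides 1 and 2 it was between -0.33 and 0.28 on iPSC arrays and between 0.10 and 0.41 on ESC arrays. Within slide 1, 2 and 3 the median difference of these 987 genes was -0.31, -0.17 and -0.20. For the 179 higher genes it was 0.80, 0.58 and 0.89. Slide and cell type were partly confounded, because the second array of every ESC line lies on slide 3 with only 1 iPSC array. Their parts in the 987 cannot be fully told apart over all arrays.

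**Figure D1:**
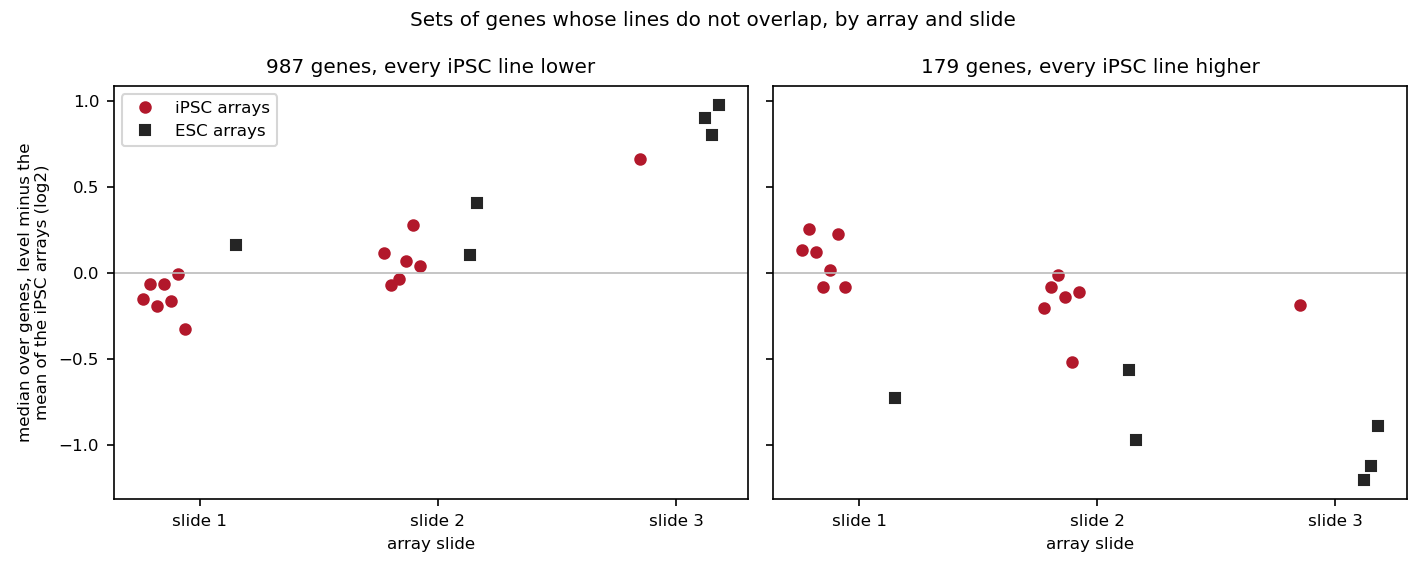
Median level over the 987 genes with every iPSC line lower (left) and the 179 genes with every iPSC line higher (right), as log2 difference from the mean of the iPSC arrays, for each array (point) by slide. In the left panel all 4 arrays of slide 3, the iPSC one included, sit between 0.66 and 0.98, above every array of slides 1 and 2.

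The gene of smallest p on the higher side was Tnik, a kinase that binds the beta-catenin and TCF complex of the Wnt pathway (probe at chr3:28569035-28569094, mm9, plus strand). Its levels were -2.35, -1.84 and -1.58 (lowest, median and highest) in the 7 iPSC lines, against -3.11, -3.01 and -3.37 in KH2, Nanog-GFP and Oct4-GFP ESCs. Every iPSC line lay above every ESC line. The difference was 1.30 ± 0.18 (SE), a 2.47-fold higher signal, with a limma adjusted p of 0.201 over lines. Within slide 1, 2 and 3 it was 1.29, 1.24 and 1.28. In a limma fit of single arrays that held slide as a block and the line as a random block, Tnik was the 1 gene called (adjusted p = 0.0338, difference 1.25, share called 0.0037%). That fit counts arrays, and the 2 arrays of a line may not be separate cultures, so its p can overstate the evidence.

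Phlda3, a target of p53 that restrains Akt signalling, had high levels in all lines (probe at chr1:137665642-137665701, mm9, plus strand). It ran from 4.45 to 4.78 with a median of 4.63 in iPSC lines, against 3.78, 4.13 and 3.75 in KH2, Nanog-GFP and Oct4-GFP ESCs. The difference was 0.74 ± 0.13 (SE), with a limma adjusted p of 0.201 over lines, and 0.84, 0.55 and 0.75 within slide 1, 2 and 3. Phlda3 was the 1 of 25 tested p53 targets whose lines did not overlap, a share to be read beside the 0.662% of all genes. The p53 list held 21 genes that were higher and 4 that were lower in iPSC lines, and its median difference was 0.22 over all arrays and 0.18 over slides 1 and 2, against -0.05 and -0.06 for all genes tested. Mdm2, the ligase that degrades p53, differed by 0.22 ± 0.18 (SE), and Cdkn1a, the cell cycle inhibitor p21, by 0.13 ± 0.25 (SE). By line, the p53 list's median lay between 0.11 and 0.51 in iPSC lines and between -0.15 and 0.27 in ESC lines, relative to the mean of the ESC lines, so the groups overlapped.

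An unnamed locus on chromosome 5 was higher in all iPSC lines by its forward-strand probes and not by its reverse-strand probe. The array carries probes against non-coding models named by position, and 2 models on the forward strand overlap 1 model on the reverse strand. The sequences of 3 probes are shown because they tell the strands apart: capitals mark the 50 bases that the forward and the reverse probe share as complements. Positions are those of mm9 in the files.
Forward strand, long model, probe at chr5:67868381-67868440: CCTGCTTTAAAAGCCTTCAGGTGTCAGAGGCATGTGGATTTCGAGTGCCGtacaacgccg
Reverse strand, long model, probe at chr5:67868371-67868430: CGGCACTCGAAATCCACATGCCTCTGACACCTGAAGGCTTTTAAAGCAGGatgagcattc
Forward strand, short model, probe at chr5:67868462-67868521: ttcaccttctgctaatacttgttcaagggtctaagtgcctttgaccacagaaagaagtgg

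The forward probe of the long model (chr5:67854954-67869163_F) had levels of -0.07, 0.38 and 0.96 (lowest, median and highest) in iPSC lines, against -2.07, -0.35 and -1.64 in KH2, Nanog-GFP and Oct4-GFP ESCs. That is a difference of 1.75 ± 0.34 (SE), a 3.37-fold higher signal in iPSC lines, with a limma adjusted p of 0.201, and within slide 1, 2 and 3 it was 2.45, 1.21 and 2.08. All 7 iPSC lines lay above the 3 ESC lines, of which Nanog-GFP ESCs were the nearest. For the short model (chr5:67865049-67868521_F) the brightest of its 3 probes differed by 1.77 ± 0.34 (SE), and the other 2 by 1.81 and 1.75. The reverse probe (chr5:67854954-67869163_R) had levels between -6.96 and -4.91 in iPSC lines and between -5.59 and -5.45 in ESC lines. Its lines overlapped, and it was well above background on 7 of 14 iPSC arrays and 5 of 6 ESC arrays.

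A probe downstream on the forward strand, for the transcript ENSMUST00000101159 (chr5:67868778-67868837, mm9), was higher in all 7 iPSC lines as well, by 1.40 ± 0.31 (SE). Within slide 1, 2 and 3 the difference of ENSMUST00000101159 was 1.74, 1.03 and 1.70. Protein-coding genes nearby did not share this pattern. Bend4 differed by 0.26 ± 0.20 (SE) with overlapping lines, and Atp8a1, a phospholipid flippase gene, was lower in all 7 iPSC lines over all arrays, with a difference of -0.55 ± 0.16 (SE), but not over slides 1 and 2. No gene name is given to the locus in the files. With the 20 arrays as units and the line as a random block, limma called 7 features (0.0259%), all higher in iPSC lines: Tnik, Phlda3, Pros1, Afap1l2, both forward models of this locus and ENSMUST00000078065, a transcript on chromosome 7. This fit, too, counts arrays and can overstate the evidence.

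**Figure D2:**
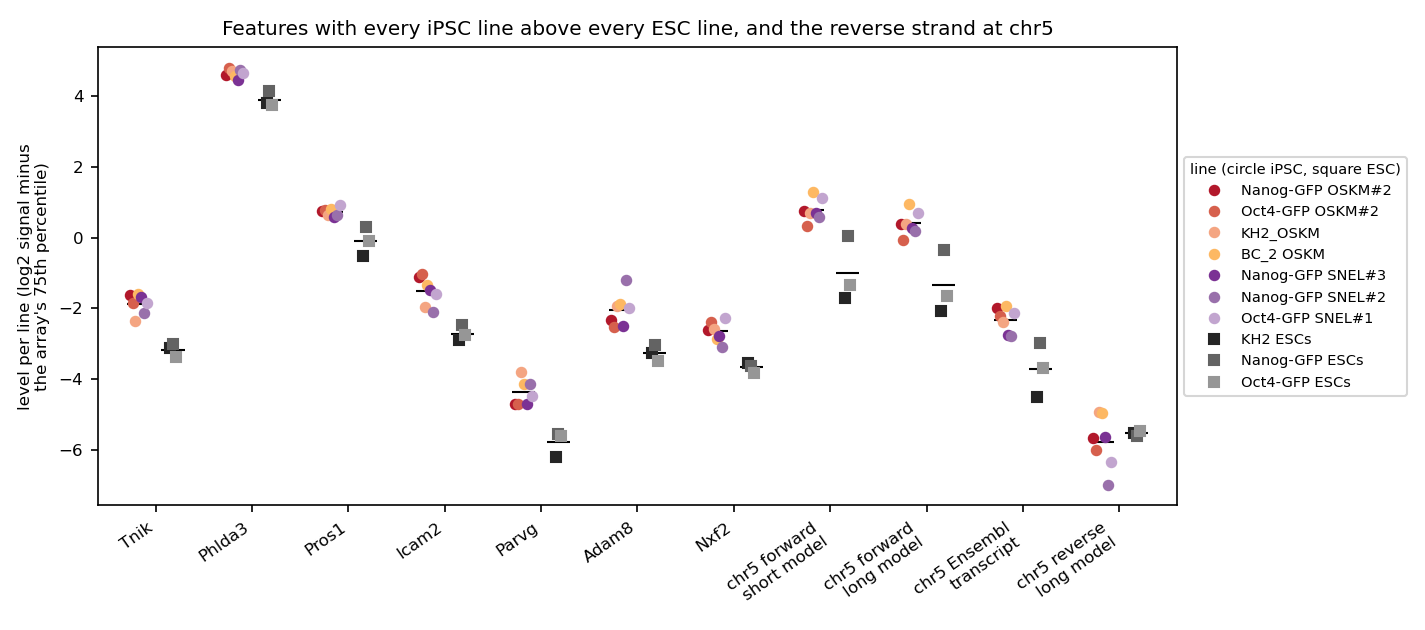
Level per line (mean of 2 arrays, log2 signal minus the array's 75th percentile) of 7 named genes, of the chromosome 5 features on the forward strand and of the reverse-strand feature, iPSC lines as circles left of ESC lines as squares, with a bar at each group's mean. Every iPSC line lies above every ESC line in all but the reverse-strand feature, for which the groups overlap.

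Icam2, Parvg, Jaml and Adam8, among the 12 named genes on the higher side, are given together for what they encode. This grouping was made after their values were seen, and no list of adhesion genes was tested. Icam2, an adhesion molecule that binds leukocyte integrins, ran from -2.10 to -1.02 in iPSC lines, against -2.90, -2.47 and -2.76 in KH2, Nanog-GFP and Oct4-GFP ESCs, a difference of 1.20 ± 0.24 (SE). Parvg, the gamma form of the parvins that link integrins to actin, ran from -4.70 to -3.78 in iPSC lines, against -6.19, -5.54 and -5.60 in the same ESC lines. It differed by 1.41 ± 0.24 (SE), and was well above background on 11 of 14 iPSC arrays and 3 of 6 ESC arrays. Jaml, a junctional adhesion molecule, ran from -3.38 to -2.37 in iPSC lines and from -4.85 to -3.74 in ESC lines. Adam8, a membrane metalloprotease, ran from -2.52 to -1.20 in iPSC lines and from -3.49 to -3.02 in ESC lines, a difference of 1.21 ± 0.27 (SE). These 4 genes met the rule with and without slide 3, and the limma adjusted p over lines lay between 0.201 and 0.211.

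The remaining named genes had varied roles. Pros1, which encodes protein S, a ligand of the TAM receptor kinases, ran from 0.59 to 0.92 in iPSC lines, against -0.53, 0.29 and -0.09 in KH2, Nanog-GFP and Oct4-GFP ESCs, a difference of 0.84 ± 0.17 (SE). Afap1l2, an actin-associated adaptor, differed by 0.86 ± 0.17 (SE), and the long non-coding RNA D5Ertd605e by 0.99 ± 0.22 (SE). Nxf2, an X-linked relative of the mRNA export factor Nxf1, differed by 1.01 ± 0.18 (SE). Scn11a, a voltage-gated sodium channel, and LOC100041903, an uncharacterised locus, were not well above background on any ESC array. For such genes only a bound can be given, the iPSC mean against the dimmest signal that counts as well above background on the ESC arrays, or the probe's own signal where that is higher: at least 1.37-fold higher for Scn11a and at least 1.95-fold higher for LOC100041903. Scn11a and LOC100041903 did not meet the rule over slides 1 and 2, while the other 10 of the 12 named genes did.

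Beyond the 12 named by smallest p, some genes were picked out after their values were seen because of what they encode, and all of them met the rule with and without slide 3. Tert, the catalytic subunit of telomerase, ran from -1.09 to -0.68 in iPSC lines and from -1.43 to -1.09 in ESC lines, a difference of 0.40 ± 0.12 (SE). Slc1a1, a glutamate transporter, had a larger difference of 2.06 ± 0.56 (SE), and its OSKM lines and Oct4-GFP SNEL#1 lay between -1.24 and -0.45 while both Nanog-GFP SNEL lines lay at -2.70 and -2.71, next to the highest ESC line at -2.83. Sord, sorbitol dehydrogenase, differed by 0.94 ± 0.24 (SE) and Kank4, an adhesion adaptor, by 0.88 ± 0.21 (SE). Cxcl10, an interferon-induced chemokine, and Hoxb2, a homeobox gene, were not well above background on any ESC array and on 4 of 14 iPSC arrays each, with bounds of at least 1.16-fold and at least 1.09-fold higher. Both passed the filter on iPSC arrays alone. The lowest iPSC and highest ESC line lay at -7.15 and -7.21 for Cxcl10 and at -7.30 and -7.32 for Hoxb2. For both, meeting the rule thus rests on the order of signals near background. The limma adjusted p over lines of these 6 genes lay between 0.211 and 0.285.

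The neighbouring transcripts AI662270 and Gm11427 on chromosome 11 were both higher, with their highest levels in OSKM lines. AI662270 ran from -7.30 to -4.62 and Gm11427 from -7.21 to -3.97 in iPSC lines, against -8.24 to -7.82 and -8.31 to -7.86 in ESC lines. In both, the 4 OSKM lines lay above the 3 SNEL lines. Neither was well above background on any ESC array, so the bounds were at least 1.44-fold higher for AI662270 and at least 1.92-fold higher for Gm11427. Both passed the filter on iPSC arrays alone, and their lowest iPSC lines were about as dim as those of Cxcl10 and Hoxb2. For the dimmest iPSC lines the order thus rests on signals near background.

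The X chromosome held 10 of the 70 genes that met the rule both ways on the higher side, 0.944% of its 1059 tested genes beside 0.259% of all genes. Among them were Trap1a, which encodes a tumour rejection antigen, Xlr5b, a member of the X-linked lymphocyte-regulated family, and Sash3, a lymphocyte adaptor. The share of X was the highest of any chromosome, with chromosome 16 next at 0.705%, and no excess was tested. Xlr5b and Sash3 passed the filter on iPSC arrays alone. Trap1a was high in all lines, at 4.70 to 5.11 in iPSC lines and 4.58 to 4.70 in ESC lines, and differed by 0.26 ± 0.12 (SE). Xlr5b was well above background on 7 of 14 iPSC arrays and on 0 of 6 ESC arrays, at least 2.53-fold higher in iPSC lines. Its level was 1.26 in Nanog-GFP OSKM#2 and between -6.90 and -5.05 in the other 6 iPSC lines, and without Nanog-GFP OSKM#2 the bound was at least 1.22-fold. Sash3 was likewise not well above background on any ESC array, at least 1.76-fold higher. Lines also differed in Y-linked signal: Eif2s3y was at -3.12 to 3.49 in iPSC lines, against -8.11 in Nanog-GFP ESCs and 1.39 and 1.42 in the other ESC lines, and its part in the X-linked differences was not tested.

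Of the contractile genes, Acta2 and Tagln lay below the ESC lines in every iPSC line. Acta2, smooth muscle actin (probe at chr19:34316060-34316119, mm9, minus strand), had levels of -4.31, -3.76 and -1.23 (lowest, median and highest) in iPSC lines, against 1.37, -1.22 and -0.95 in KH2, Nanog-GFP and Oct4-GFP ESCs. The highest iPSC line, Oct4-GFP SNEL#1, and the lowest ESC line were nearly level. The difference was -2.97 ± 0.74 (SE), with a limma adjusted p of 0.220 over lines, and -4.68, -2.48 and -0.89 within slide 1, 2 and 3. Tagln, the smooth muscle protein transgelin, ran from -1.46 to -0.54 in iPSC lines, against 1.68, -0.23 and -0.37 in the same ESC lines, a difference of -1.49 ± 0.42 (SE). For both genes KH2 ESCs were the highest line.

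The promoter of Acta2 is shown because the gene is a classical target of serum response factor, whose binding site begins with CC and ends with GG around a core rich in A and T. It is the RefSeq sequence on GRCm38.p6, minus strand, around the start of the gene, with each CCNNNNNNGG in capitals.
Acta2, chr19:34255324-34255623: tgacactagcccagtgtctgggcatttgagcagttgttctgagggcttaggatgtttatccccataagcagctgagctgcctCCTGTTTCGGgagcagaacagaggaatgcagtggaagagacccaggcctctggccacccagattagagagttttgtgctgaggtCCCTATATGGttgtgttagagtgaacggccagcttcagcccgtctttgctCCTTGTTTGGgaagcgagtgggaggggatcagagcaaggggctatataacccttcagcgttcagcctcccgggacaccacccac

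The letters CCNNNNNNGG, which read the same on both strands, occur 3 times in the Acta2 window and in 73.3% of all 32851 promoters of this length. The strict CArG box, with only A or T in its core, does not occur in it and is present in 1.63% of promoters. Among 17 tested contractile genes and serum response factor targets, 13 were lower and 4 higher in iPSC lines, the median difference was -0.21, and Acta2 and Tagln were the 2 that met the rule, 11.8% of the list beside 3.65% of all genes on the lower side. Actg2, gamma smooth muscle actin, differed by -2.32 ± 0.59 (SE) with overlapping lines and was well above background on 1 of 14 iPSC arrays and 6 of 6 ESC arrays, and Myl9, a myosin light chain, by -1.16 ± 0.47 (SE). The gene of serum response factor itself, Srf, differed by -0.05 ± 0.19 (SE).

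**Figure D3:**
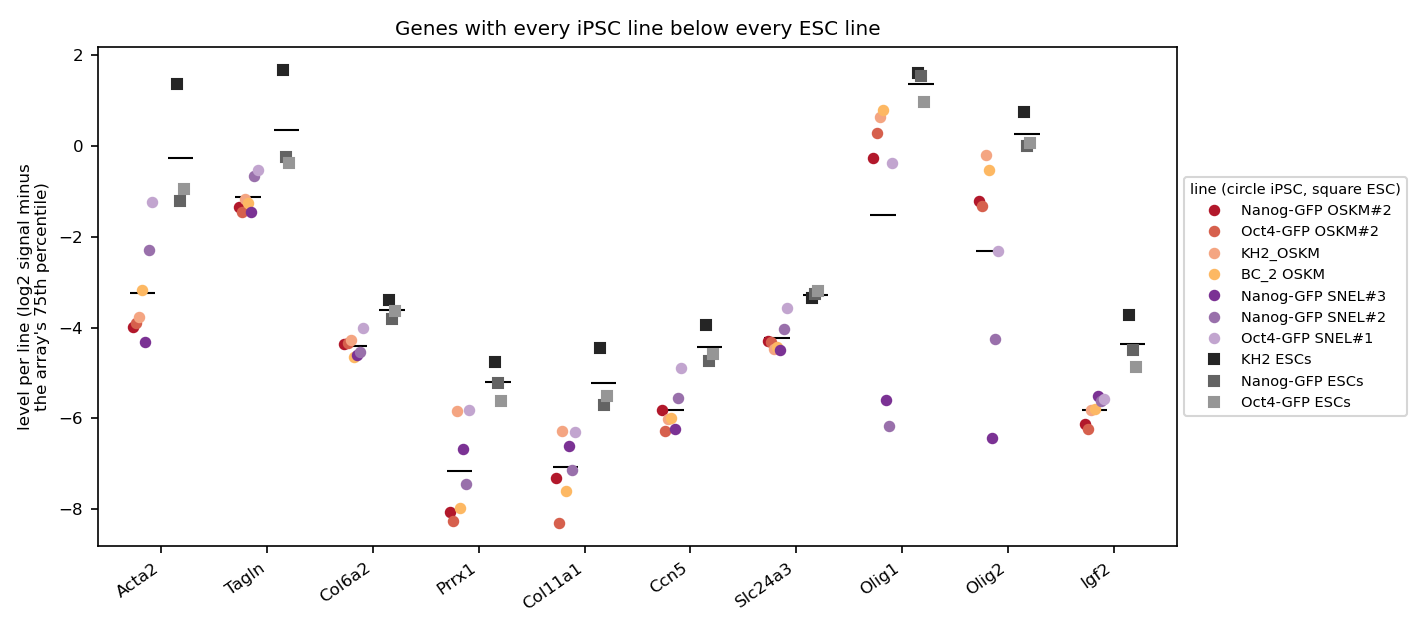
Level per line (mean of 2 arrays, log2 signal minus the array's 75th percentile) of 10 genes that met the rule on the lower side with and without slide 3, iPSC lines as circles left of ESC lines as squares, with a bar at each group's mean. Olig1 and Olig2 show the widest spread among iPSC lines, with Nanog-GFP SNEL#3 and Nanog-GFP SNEL#2 lowest.

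By their median, fibroblast and matrix genes were lower in 6 of the 7 iPSC lines and not in Oct4-GFP SNEL#1. Of 27 tested, 25 were lower and 2 higher, with a median difference of -1.41 over all arrays and -1.14 over slides 1 and 2. Relative to the mean of the ESC lines, the list's median was between -2.17 and -1.27 in the 6 lines and 0.16 in Oct4-GFP SNEL#1, against 0.25, -0.03 and -0.31 in KH2, Nanog-GFP and Oct4-GFP ESCs. Col1a2, a chain of type I collagen, had levels of -3.54, -3.47, -1.96, -1.65, -3.89 and -0.93 in the 6 lines and 1.59 in Oct4-GFP SNEL#1, against 1.66, 1.75 and 0.99 in the ESC lines. Postn, the matrix protein periostin, ran from -8.18 to -6.45 in the 6 lines and lay at -3.81 in Oct4-GFP SNEL#1, against -3.09, -3.63 and -4.21 in the ESC lines. Of the surface markers on the list, Thy1 differed by 0.14 ± 0.50, Pdgfra by -0.09 ± 0.55, Pdgfrb by -0.06 ± 1.13 and Fap by -1.41 ± 0.88 (SE), each with overlapping lines. Within slide 3, where Oct4-GFP SNEL#1 is the iPSC line, the list's median difference was 0.29. The part of such cells in the other differences was not tested, and in bulk RNA fewer cells of a type and less RNA per cell cannot be told apart.

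With Oct4-GFP SNEL#1 left out, limma called 118 genes over lines (0.436%), 2 higher and 116 lower. In that fit slide 3 held ESC arrays alone. Each line was left out in turn, and only the omission of Oct4-GFP SNEL#1 gave calls. That line was the highest iPSC line for Postn, Ccdc80, Dcn, Col1a2 and Osmr, so its omission narrows the iPSC spread of these genes. Their adjusted p values below are thus not independent support. The median difference of the 116 was -1.09, and -0.13 over slides 1 and 2 with all lines, where 91 of them kept a negative sign. Gm13430 and Gm9442, chosen after their values were seen from those of lowest adjusted p, differed by -1.18 and -1.13 in that fit and by -0.09 and -0.03 over slides 1 and 2. For 49 of the 116, Oct4-GFP SNEL#1 was at or above the lowest ESC line. Of the 713 tested members of the 31 gene lists (receptor genes aside), 4 were among the 118, beside 0.436% of all genes. No excess is read from this count. All 4 were secreted matrix proteins of the fibroblast list, of which 27 genes were tested. Ccdc80 differed by -4.51 ± 0.68 (SE, adjusted p = 0.0337), Dcn by -2.53 ± 0.35 (SE, adjusted p = 0.0275) and Col1a2 by -4.04 ± 0.66 (SE, adjusted p = 0.0459), and they were well above background on 1, 2 and 12 of the 12 arrays of the 6 iPSC lines. Postn and Osmr, the receptor of oncostatin M, were not well above background on any of these 12 arrays but were on 6 of 6 ESC arrays each, so they were at least 4.14-fold lower (Postn, adjusted p = 0.0184) and at least 2.52-fold lower (Osmr, adjusted p = 0.0185) in the 6 lines. With slide 3 left out as well, limma called 0 genes (lowest adjusted p = 0.224). Over slides 1 and 2 with all lines, Postn differed by -2.98, Ccdc80 by -3.89, Dcn by -2.24, Col1a2 by -3.52 and Osmr by -2.06.

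Col6a2 and Prrx1 were the 2 genes of the fibroblast list that met the rule, both with and without slide 3, 7.41% of the list beside 3.65% of all genes on the lower side, and 0.458% with and without slide 3. Col6a2, a chain of type VI collagen, ran from -4.66 to -4.02 in iPSC lines, against -3.39, -3.82 and -3.63 in KH2, Nanog-GFP and Oct4-GFP ESCs, a difference of -0.79 ± 0.16 (SE). Prrx1, a mesenchymal transcription factor, was well above background on 2 of 14 iPSC arrays and on 6 of 6 ESC arrays, and its measured values, mostly near background in iPSC lines, differed by -1.96 ± 0.58 (SE). Within slide 3, where Oct4-GFP SNEL#1 is the iPSC line, the difference of Prrx1 was 0.17. Outside the list, the collagen gene Col11a1 and the matrix-associated gene Ccn5 were picked out after their values were seen and differed by -1.85 ± 0.46 and -1.41 ± 0.30 (SE), with limma adjusted p over lines of 0.220 and 0.205. Col11a1 was well above background on 1 of 14 iPSC arrays and 5 of 6 ESC arrays.

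**Figure D4:**
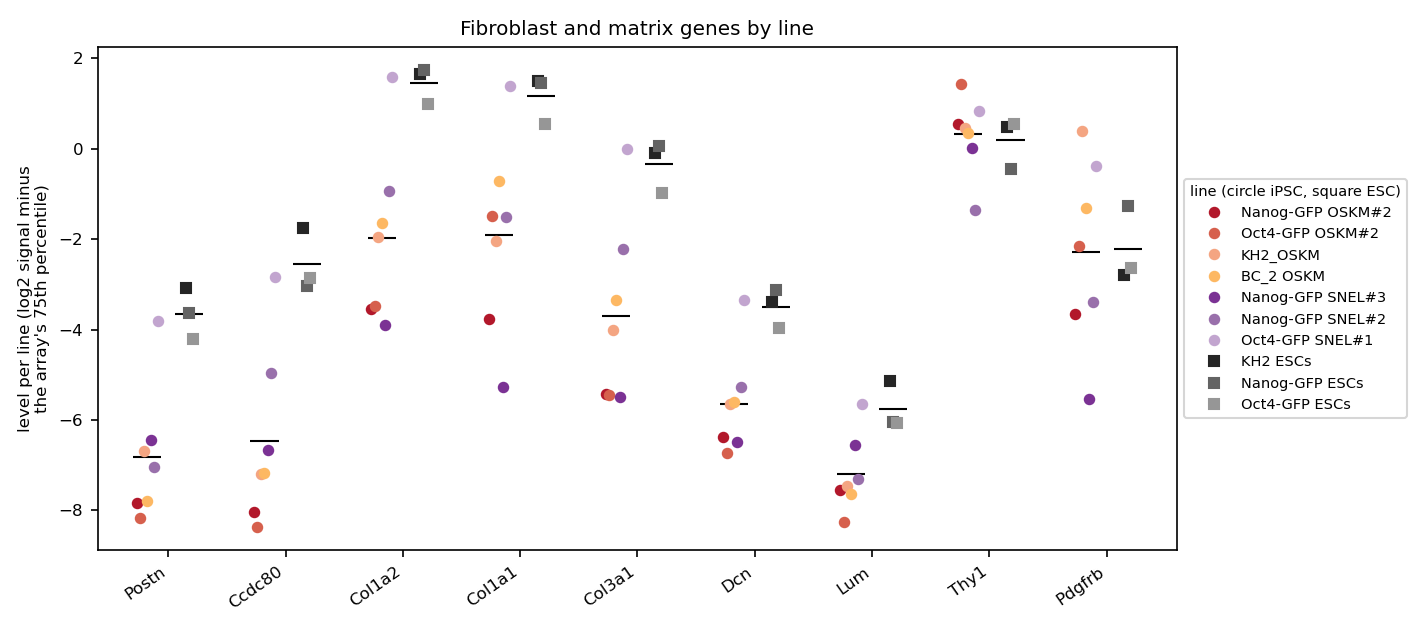
Level per line (mean of 2 arrays, log2 signal minus the array's 75th percentile) of 9 fibroblast and matrix genes, iPSC lines as circles left of ESC lines as squares, with a bar at each group's mean. For Col1a2 the light purple circle of Oct4-GFP SNEL#1 lies at 1.59, among the ESC lines at 0.99 to 1.75, while the other 6 iPSC lines lie between -3.89 and -0.93.

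Olig1 and Olig2, neighbouring genes on chromosome 16 that encode transcription factors of oligodendrocyte and motor neuron precursors, were lower together. Olig2 ran from -6.44 to -0.20 in iPSC lines, against 0.75, 0.00 and 0.07 in KH2, Nanog-GFP and Oct4-GFP ESCs. Its 4 OSKM lines lay between -1.33 and -0.20 and its 3 SNEL lines between -6.44 and -2.31. Olig1 ran from -6.17 to 0.80 in iPSC lines, against 1.60, 1.54 and 0.98 in the same ESC lines. The spread among iPSC lines was wide, and the differences of -2.60 ± 1.21 for Olig2 and -2.90 ± 1.61 for Olig1 (SE) had limma adjusted p values of 0.548 and 0.663.

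Igf2, an imprinted growth factor gene, was the 1 of 34 genes on the list of other imprinted genes whose lines did not overlap, 2.94% of the list beside 3.65% of all genes on the lower side. It ran from -6.23 to -5.52 in iPSC lines, against -3.73, -4.50 and -4.87 in KH2, Nanog-GFP and Oct4-GFP ESCs, a difference of -1.45 ± 0.25 (SE, limma adjusted p = 0.201). It was well above background on 4 of 14 iPSC arrays and 6 of 6 ESC arrays, and within slide 1, 2 and 3 it differed by -2.75, -0.48 and -0.34. The largest of these came from slide 1, where KH2 ESCs were the ESC line. The list's median difference was 0.03, with 21 genes higher and 13 lower. In the Dlk1-Dio3 locus the lines did not move together: Meg3, its maternally expressed long non-coding RNA, was at 0.09 to 3.02 in the 3 poor lines and at 4.04 to 6.53 in the other 4 iPSC lines, against 4.38 to 5.08 in ESC lines.

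The other 11 of the 12 named genes on the lower side were largely sensory receptor, pseudogene and uncharacterised loci. Among them, Olfr213, Olfr577, Vmn1r52 and Vmn2r-ps43 are olfactory or vomeronasal receptor genes or pseudogenes, F9 encodes coagulation factor IX, Wfdc3 a secreted protease inhibitor-like protein and Ear10 an eosinophil-associated ribonuclease. The 11 differences over all arrays ran from -1.43 (Gm5080) to -0.72 (LOC641199). Over slides 1 and 2 those of Olfr213 and F9 were -0.64 and -0.51, and both met the rule there too, as did 4930533B01Rik (-0.78) and LOC641199 (-0.36). The other 7, LOC674157, Vmn2r-ps43, Olfr577, Vmn1r52, Gm5080, Wfdc3 and Ear10, did not. Of 355 tested receptor genes of both families, a list added after the values were seen, 36 met the rule on the lower side (beside 3.65% of all genes) and 6 on the higher side (1.69%, beside 0.662%), together 11.8% beside 4.31% of all genes. With and without slide 3, 8 on the lower side (2.25%, beside 0.458%) and 0 on the higher side (beside 0.259%) met it. The median difference of these receptor genes was -0.22 over all arrays and 0.02 with normexp background correction, so their direction was not settled.

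**Figure D5:**
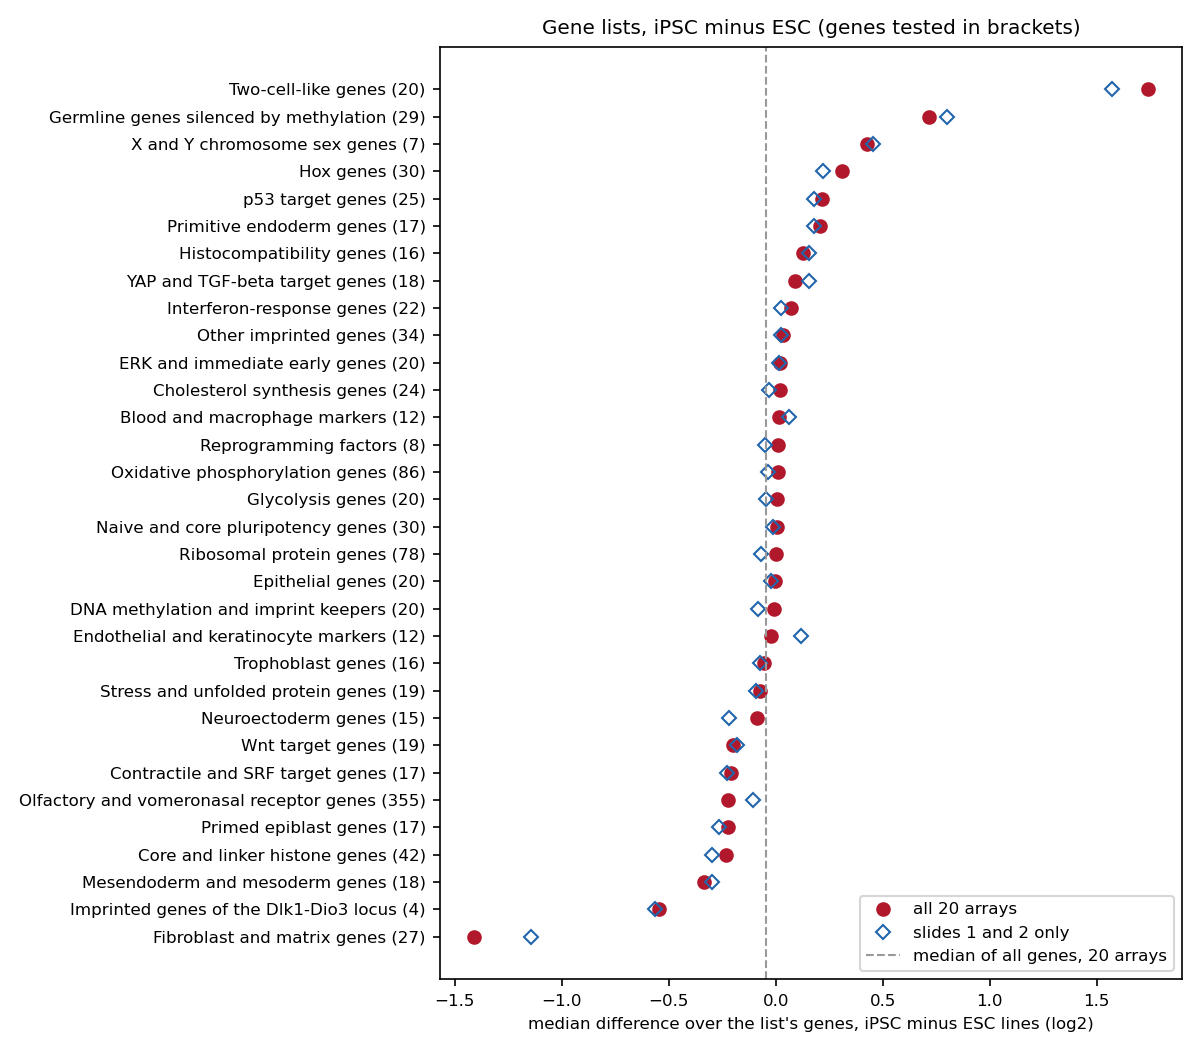
Median difference between iPSC and ESC lines over the genes of each list (log2, iPSC minus ESC) from all 20 arrays (filled circles) and from slides 1 and 2 (open diamonds), with the median of all genes as a dashed line. Fibroblast and matrix genes lie lowest at -1.41 and Two-cell-like genes highest at 1.74, and both keep their side of 0 without slide 3.

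Among the 31 lists, which share members, 713 genes were tested. Of these 18 met the rule over all arrays in either direction (2.52%, beside 4.31% of all genes), and 9 with and without slide 3 (1.26%, beside 0.717%): Acta2, Tagln, Col6a2, Prrx1, Igf2 and Olig2 on the lower side and Phlda3, Hoxb2 and Sash3 on the higher side. Hoxb2 and Sash3 were not well above background on any ESC array, so they passed the filter on iPSC arrays alone. Naive and core pluripotency genes split into 15 higher and 15 lower with a median difference of 0.00, and for 0 of the 30 did the lines stand apart. Over slides 1 and 2 these 30 genes split into 14 higher and 16 lower. Ribosomal protein genes split into 39 higher and 39 lower over all arrays, with a median difference of 0.00, and into 10 higher and 68 lower over slides 1 and 2, with a median difference of -0.07, beside -0.06 for all genes. Core and linker histone genes were lower for 38 of 42, with a small median difference of -0.23, and within slide 1, 2 and 3 it was -0.29, -0.25 and -0.15. In the iPSC lines the histone median ran from -0.46 to 0.10 relative to the ESC mean and overlapped that of the ESC lines at -0.05 to 0.08.

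A further pair of lists was higher on average without being higher in every line. Two-cell-like genes, normally expressed at activation of the embryonic genome, were higher for 17 of 20, with a median difference of 1.74. Their median per line was 4.02 in Oct4-GFP SNEL#1 and 3.34 in Oct4-GFP OSKM#2, between 1.03 and 1.77 in the other 3 OSKM lines, and -0.39 and -0.07 in both Nanog-GFP SNEL lines, against 0.99 in Nanog-GFP ESCs and -0.62 and -0.63 in the other ESC lines. Zscan4f, a marker of that state, ran from -5.42 to 4.11 in iPSC lines and from -4.27 to 0.40 in ESC lines. Germline genes silenced by methylation were higher for 25 of 29, with a median difference of 0.72. Their median per line was between 0.74 and 1.59 in 5 iPSC lines and at -0.43 and -0.34 in the same 2 SNEL lines, against -0.43 to 0.73 in ESC lines. By the probe that stood for each gene, Xlr3a and Xlr4a met the rule over all arrays but not over slides 1 and 2. The other Xlr4a probe, with a difference of 3.20, met it over all arrays and over slides 1 and 2. ESC lines lay at -8.07 to -7.44 for that probe and at -8.26 to -7.58 for Xlr3a. These levels are as low as those of Hoxb2, which was not well above background on any ESC array. The sizes for that probe and Xlr3a are thus measured against signals near background.

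The factors and the grade were compared among the 7 iPSC lines to see what the comparison of all iPSC lines pooled. Between 3 SNEL and 4 OSKM lines, limma called 2 genes (0.00739%), both higher in SNEL lines. Grem1, an antagonist of bone morphogenetic proteins, was at -4.68, -4.81 and -3.62 in SNEL lines, against -8.00, -7.65, -7.50 and -7.89 in OSKM lines, with an adjusted p of 0.0345. It was not well above background on any of the 8 OSKM arrays but was on 3 of 6 SNEL arrays, so it was at least 3.20-fold higher in SNEL lines. The ESC lines lay at -3.65, -4.63 and -4.35, level with the SNEL lines. Fgf22, a fibroblast growth factor, was at -1.93, -1.82 and -1.77 in SNEL lines, against -3.44, -3.40, -3.54 and -3.81 in OSKM lines, a difference of 1.71 ± 0.14 (SE, adjusted p = 0.0157), and at -3.34 to -3.14 in ESC lines. Leaving out any of Nanog-GFP OSKM#2, KH2_OSKM, Nanog-GFP SNEL#3 or Nanog-GFP SNEL#2 ended both calls, and leaving out BC_2 OSKM ended that of Grem1. Leaving out Oct4-GFP OSKM#2 gave 10 calls and leaving out Oct4-GFP SNEL#1 gave 342. Between the 3 poor and the 4 good and high lines limma called 0 genes (0%), with 1051 higher and 434 lower at an unadjusted p under 0.05 and a lowest adjusted p of 0.711, and leaving out Oct4-GFP OSKM#2, BC_2 OSKM or Oct4-GFP SNEL#1 gave 1, 1 and 2 calls. Without BC_2 OSKM the poor lines are the 3 remaining OSKM lines and the others the 3 SNEL lines, so that this comparison is then the one of OSKM with SNEL.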

How the data were processed

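RNA of 10 mouse lines was hybridised in 1 colour to Agilent arrays. The scanner files hold intensity values that the authors deposited, background-subtracted and detrended by the scanner software per the file headers. The authors also deposited a value table in log2 units, used as an alternative, and the submitters' processing notes name limma. Its column medians run from 6.27 to 6.28, and its exact normalization is not given in the sources used here.

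Log2 intensity minus each array's 75th percentile (a signal of 587 to 1076) was used, without control spots or flagged values. Probes well above background on at least 4 arrays were kept (38756 of 55681), 0 probes were saturated, and the brightest probe stood for a gene. This left 27059 genes, of which 3837 have position names and 2385 transcript accessions. Symbols were updated by RefSeq accession (26413 probes matched). The 2 arrays of each line were averaged to give 1 replicate. A linear model (limma 3.58.1, R 4.3.3) set 7 iPSC against 3 ESC lines, with Benjamini-Hochberg adjustment over all genes and a threshold of 0.05. P-values over lines set the difference between the groups against the spread between these lines. Those of the fits with arrays as units also draw on the spread between the 2 arrays of a line. The main fit treats lines of the same origin as independent. With origin as a block and BC_2 OSKM left out, limma called 0 genes (lowest adjusted p = 0.293). Precision is limited by how few arrays there are.

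A gene met the rule where all 7 iPSC lines lay beyond all 3 ESC lines. The named genes were, per direction, 12 with symbols: called ones with the largest difference first, otherwise those of smallest p that met the rule. Up to 3 members of smallest p per list, the 8 reprogramming factors and at most 3 unnamed features were also read. Others are given as chosen after their values were seen. The members and lists were chosen with earlier results of these data known. Alternatives covered background, normalization, filter, probe rule, slide, replicate number, origin, groups in the fit, variance model and each line.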

Additional observations from a re-analysis of the deposited data

Results flagged for a closer look

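Among the 79 genes followed through the alternatives and 32 lists, 5 genes and 3 lists had an iPSC line far from the other 6. Over all genes tested, the outlying line was Nanog-GFP SNEL#2 for 0.41% of genes, Oct4-GFP SNEL#1 for 0.917% and KH2_OSKM for 1.2%, with the other lines between. Chance alone marks about 1 in 20 groups, but some of the 79 genes were chosen after their values were seen. That rate does not apply to them. Xlr5b had a level of 1.26 in Nanog-GFP OSKM#2, and its next highest line lay at -5.05. Xlr3a was at -2.40 in the same line, with the next at -5.52. Postn, Osmr and Dcn were at -3.81, -3.86 and -3.33 in Oct4-GFP SNEL#1, with the next line at -6.45, -6.32 and -5.27. The median of fibroblast and matrix genes was 0.16 in Oct4-GFP SNEL#1 relative to the ESC lines, with the nearest line at -1.27. The median of neuroectoderm genes was -0.74 in BC_2 OSKM, with the nearest line at -0.08. The median of olfactory and vomeronasal receptor genes was -0.068 in KH2_OSKM, with the nearest line at -0.20.

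SNEL and OSKM lines differed, by limma over all genes, in Fgf22 by 1.71 (adjusted p = 0.0157) and in Grem1 by 3.39 (adjusted p = 0.0345). Grem1 was not well above background on any OSKM array, so its size is measured against background there. All 3 SNEL lines lay above all 4 OSKM lines for each.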

How the results depend on the processing

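The 0 calls over lines became 7 with the 20 arrays as units and the line as a random block, 1 with slide as a block and 7 with the replicate block, and ran from 0 to 118 without each line or array number. Genes above the ESC lines numbered 331 with normexp, 671 with no filter on dim probes, 80 with probes well above background on all arrays, 103 over slides 1 and 2, 70 when met both ways, and 153 to 812 with a line or array number left out. Genes below numbered 546 with normexp, 607 with probes above background on all arrays, 198 over slides 1 and 2, 124 when met both ways, 269 over slides 1 and 2 without Oct4-GFP SNEL#1, and 252 to 2268 with a line or array number left out, where 1 line or array fewer changes how hard the rule is to meet. Of the 24 named genes, 11 met the rule among probes above background on all arrays, 15 over slides 1 and 2 (with and without Oct4-GFP SNEL#1), and 13 to 24 with a line or array number left out. Of list members, 7, 10 and 12 to 64 did under the first, second and last of these settings. Under the first, genes that the filter took out were not assessed and are not in the counts. The 24 named genes were chosen because they met the rule over all arrays. Without Oct4-GFP SNEL#1 the 118 calls, 293 and 1373 genes and 43 list members were reached, and without Nanog-GFP ESCs the 812, 2268 and 64. SNEL against OSKM gave 0 to 342 calls and poor against good and high 0 to 2 without each iPSC line. Signs turned for 18 of the 79 genes followed, and the other 61 kept their direction. Within slide 3 alone they turned for Prrx1 (0.17), Slc24a3 (0.17, a cation exchanger gene that met the rule on the lower side), Col1a2 (0.070), Dcn (0.39), Osmr (0.47), Fap (0.29), Grem1 (0.55) and Nanog (0.26). For chr5:67854954-67869163_R the value was 0.071 with normexp, 0.33 within slide 1, and -0.58 to 0.078 without each line or array number. Pdgfra was at 0.15 with normexp, 0.012 in the authors' deposited table, 0.11 with slide as a block, 0.097 and 0.40 within slides 1 and 3, 0.031 over slides 1 and 2 without Oct4-GFP SNEL#1, and -0.40 to 0.078 without each line or array number. Pdgfrb was in the same order at 0.26, 0.14, 0.079, 0.70 and 1.80, then 0.045 over slides 1 and 2, 0.16 with origin as a block, and -0.51 to 0.48. Thy1 was at -0.088 and -0.0067 within slides 1 and 2, -0.030 over both without Oct4-GFP SNEL#1, and -0.18 to 0.42. Pou5f1 was at -0.060 with slide as a block, -0.34 and -0.93 within slides 1 and 3, and -0.29 to 0.31. Cdkn1a was at -7.17e-06 with slide as a block and at -0.093 and -0.20 within slides 2 and 3. Srf was at 0.051 in the authors' deposited table, 0.042 within slide 3, and -0.13 to 0.045. Esrrb was at 0.031 with quantile normalization and -0.088 to 0.059, Eif2s3y at -0.23 within slide 1 and -0.24 to 4.52, and Fgf22 at -0.15 within slide 2 and -0.11 to 0.90. The cause was not tested. The differences between arrays 1 and 2 correlated between lines from -0.097 to 0.51 with a median of 0.17, not over 0.1 in every pair, so array numbers were not taken to pair the lines. The replicate block called D5Ertd605e in place of Afap1l2. Signal over background limits dim genes.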

Other observations

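The name of the reporter ran with the level of a pluripotency gene. Pou5f1, which encodes Oct4, was at 5.35 in Oct4-GFP OSKM#2 and 5.13 in Oct4-GFP SNEL#1, against 5.15 in Oct4-GFP ESCs, and at 6.10 to 6.47 in the other 5 iPSC lines, against 6.34 and 6.28 in the other ESC lines. The 3 lines named Oct4-GFP were thus the lowest of the 10, whatever their kind. Zfp42, a naive marker, was at 3.93 and 3.88 in the Oct4-GFP iPSC lines and at 5.48 to 6.48 in the others, against 5.77 to 6.05 in ESC lines, where Oct4-GFP ESCs were at 5.90.

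A pair of features on chromosome 17 met the rule on the lower side with 2 levels among iPSC lines. Gm10499 was at 3.43, 3.37 and 3.42 in Nanog-GFP OSKM#2, KH2_OSKM and BC_2 OSKM and between -8.19 and -4.50 in the other 4, against 3.57, 3.93 and 3.76 in ESC lines. Its neighbour 2410017I17Rik was highest in the same 3 lines, at -4.08, -4.84 and -4.87, against -3.48 to -3.42 in ESC lines. Lin28a, a SNEL factor, was at 5.27 and 4.99 in the Nanog-GFP SNEL lines and 2.10 in Oct4-GFP SNEL#1, against 3.65 to 5.40 in ESC lines.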
